A study of Mus musculus with 4 samples.

Results

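The module described here is a set of 35 immediate early genes, genes that cells transcribe within minutes of a stimulus without first making new protein. Its members were found by gene symbol, and all 35 were among the 31055 genes of the count matrices. The study compared Dp(10)2Yey mice, in which the segment of mouse chromosome 10 from Prmt2 to Pdxk is duplicated, with wild-type (WT) littermates. Hippocampi of 2 male mice of each genotype, 3 months old and of the C57BL/6J strain, were dissociated with enzymes at 37 °C and profiled by droplet single-cell RNA sequencing, with 1 library per mouse. The mice were prepared on 2 days, 1 of each genotype per day, and the sources used here do not tell which libraries were made together. The duplication covers only part of the mouse genes whose human counterparts lie on the chromosome that is trisomic in Down syndrome. None of the 35 members lies in it, although Egr2, Gadd45b and Dusp6 lie elsewhere on chromosome 10.

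Values by library are given throughout in the order WT replicate 1, WT replicate 2, Dp(10)2Yey replicate 1 and Dp(10)2Yey replicate 2. The libraries held 1039, 1708, 1372 and 2345 cell barcodes and 3002546, 6848466, 5112759 and 9612011 unique molecular identifiers (UMIs), each of which marks a captured RNA molecule. Median UMIs per barcode were 2049, 3669.5, 3386 and 3696, and WT replicate 1 was the shallowest library. Any pair of libraries had between 0 and 3 barcode sequences in common. Over all barcodes the 35 members took 2.43, 2.23, 2.04 and 2.44% of UMIs, and mitochondrial transcripts took 6.36, 6.75, 7.04 and 3.84%.

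Markers of hippocampal neurons were present at low levels. Prox1, which among hippocampal neurons marks dentate granule neurons, stood at 84.3, 105, 88.3 and 82.3 counts per 1000000 UMIs (CPM). Slc17a7, the vesicular glutamate transporter of excitatory neurons, stood at 16.1, 48.6, 30.6 and 31.0 CPM. These levels are over all clustered cells, so they do not tell which class held the transcripts. Cx3cr1, a chemokine receptor of microglia, stood at 1643, 1502, 1543 and 1904 CPM, so the suspensions were rich in microglial RNA. Since each molecule is counted once at its 3′ end, levels of different genes are compared without a correction for length.

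Many immediate early genes code for transcription factors, among them the AP-1 proteins of the Fos and Jun families, the EGR and NR4A factors and the Krüppel-like factors (KLF), and others code for proteins that damp the signal that induced them. In hippocampal neurons, Fos, Egr1, Arc and Npas4 are widely used as marks of recent activity. Enzymatic dissociation of brain tissue at warm temperature is also known to induce many of these genes, in microglia in particular. All 4 libraries were prepared by the same dissociation, so transcription linked to handling and transcription linked to activity in the animal cannot be told apart here.

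Cells were clustered with the 35 members left out of the genes used, so that the groups were not drawn from the module. The 6242 clustered cells formed 13 clusters, of which 12 were named after marker genes: 2555 cells were microglia-like, 973 oligodendrocyte-like, 890 astrocyte-like, 484 neuron-like, 468 oligodendrocyte precursor-like, 268 endothelial-like, 182 immature neuron-like, 148 choroid plexus epithelium-like and 129 ependymal-like. The remaining 145 cells formed cluster 10, which was not named because markers of border macrophages and of neutrophils or monocytes were tied in it. The names were rebuilt from the counts, and differences from the classes of the study may come from that.

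The module was most abundant in microglia-like cells. Its share there, taken as member UMIs divided by all UMIs of the class in a library, was 5.11, 5.27, 4.82 and 5.59%, with a mean of 5.20% ± 0.319 (SD, n = 4 libraries). Endothelial-like cells had the next highest share among the named classes, 1.80, 1.45, 1.5 and 1.48%, and cluster 10 had 2.20, 2.84, 1.65 and 2.77%. In each of the 4 libraries the microglia-like share was above that of every other named class, and these cells held 475959 of the 563142 member UMIs in clustered cells. Differences between classes are given as descriptions without a test.

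A middle range was formed by the oligodendrocyte lineage and immature neurons. Oligodendrocyte precursor-like cells had shares of 0.572, 0.662, 0.641 and 0.781%, immature neuron-like cells of 0.756, 0.533, 0.519 and 0.726% and oligodendrocyte-like cells of 0.410, 0.617, 0.493 and 0.641%. Their means of 0.664% ± 0.0869, 0.634% ± 0.125 and 0.540% ± 0.109 (SD, n = 4) differed by less than or about as much as their spread, so their order is not resolved. In ependymal-like cells the shares were 0.308, 0.364, 0.204 and 0.288%, and this was the only class in which both Dp(10)2Yey libraries lay below both WT libraries in this pooled share. The medians over its barcodes, 0.308, 0.215, 0.202 and 0.234%, overlapped between the genotypes.

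The lowest shares were those of neuron-like, astrocyte-like and choroid plexus epithelium-like cells. Neuron-like cells had 0.218, 0.175, 0.193 and 0.221% and astrocyte-like cells 0.238, 0.132, 0.146 and 0.245%, while choroid plexus epithelium-like cells had 0.0766, 0.278, 0.0428 and 0.268%. The means of 0.202% ± 0.0219, 0.190% ± 0.0594 and 0.166% ± 0.124 (SD, n = 4) lay within their spread of each other. In choroid plexus epithelium-like cells both replicate 2 libraries were above both replicate 1 libraries, and Malat1 differed in the same way, at 383, 10704, 80.2 and 11187 CPM. With the members among the variable genes, 125 cells kept this name and 3, 11, 0 and 7 cells, led by Mgp and Prg4 and with fibroblast markers ahead, formed a cluster of their own. The part of these differences in the shares was not tested. Neuron-like cells had a median mitochondrial share of 25.3%, against 2.66% in microglia-like cells, and without cells above 20% mitochondrial UMIs their module shares were 0.295, 0.223, 0.403 and 0.265%. When each member was scaled by its own mean over all cells, so that abundant members did not dominate, microglia-like cells remained the highest named class, at 1.88 times the mean over all cells, but cluster 10 stood above them at 1.99, and among named classes neuron-like cells followed the microglia-like and endothelial-like cells.

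**Figure D1:**
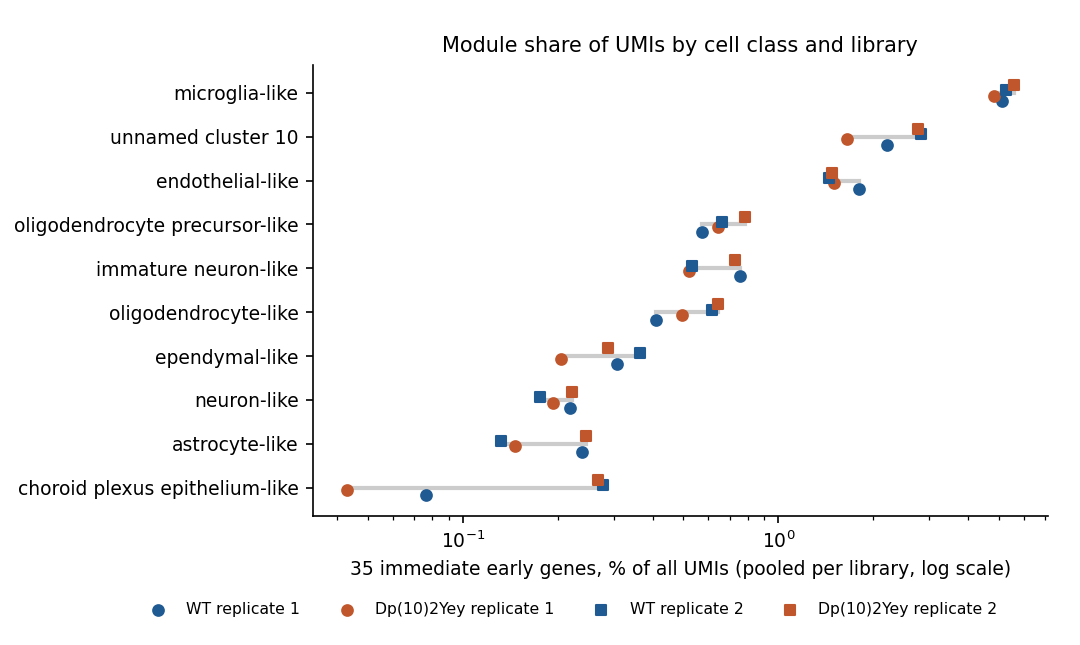
Share of UMIs taken by the 35 immediate early genes (percent, log axis) in each cell class, with a point per library (blue WT, orange Dp(10)2Yey, circles replicate 1, squares replicate 2) and a grey line from the lowest to the highest library. Microglia-like cells lie between 4.82 and 5.59%.

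Within the microglia-like class, 2 clusters differed widely in the module. Cluster 0, with 1975 cells and a median of 4115 UMIs, had shares of 5.63, 5.60, 5.19 and 5.86%, and cluster 2, with 580 cells and a median of 800 UMIs, had 0.113, 0.230, 0.123 and 0.207%. Mitochondrial transcripts took a median of 2.30% of UMIs in cluster 0 and 5.09% in cluster 2. Both were led by microglial markers, and the leading genes of cluster 0 also included the cytokine and chemokine genes Il1a, Ccl3 and Ccl4 and Nfkbiz, a regulator of NF-kB.

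Counted by barcode, 635 of the 2555 microglia-like cells (24.9%) had under 1% of their UMIs in the module, 1471 (57.6%) had 4% or more, and 449 lay between. Of the 580 cells of cluster 2, 557 were under 1%. The low cells made up 34.9, 21.9, 29 and 20.3% of the class by library, most in the shallowest library. The module share was low in shallow barcodes and, among the deeper ones, fell with depth. The module took 1.12% of the UMIs of microglia-like barcodes with under 1000 UMIs and 1.45% of those with 1000 to 2000. This compares with 6.20% at 2000 to 4000, 5.41% at 4000 to 8000 and 4.66% at 8000 or more. The part of depth and of mitochondrial share in these levels was not tested.

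**Figure D2:**
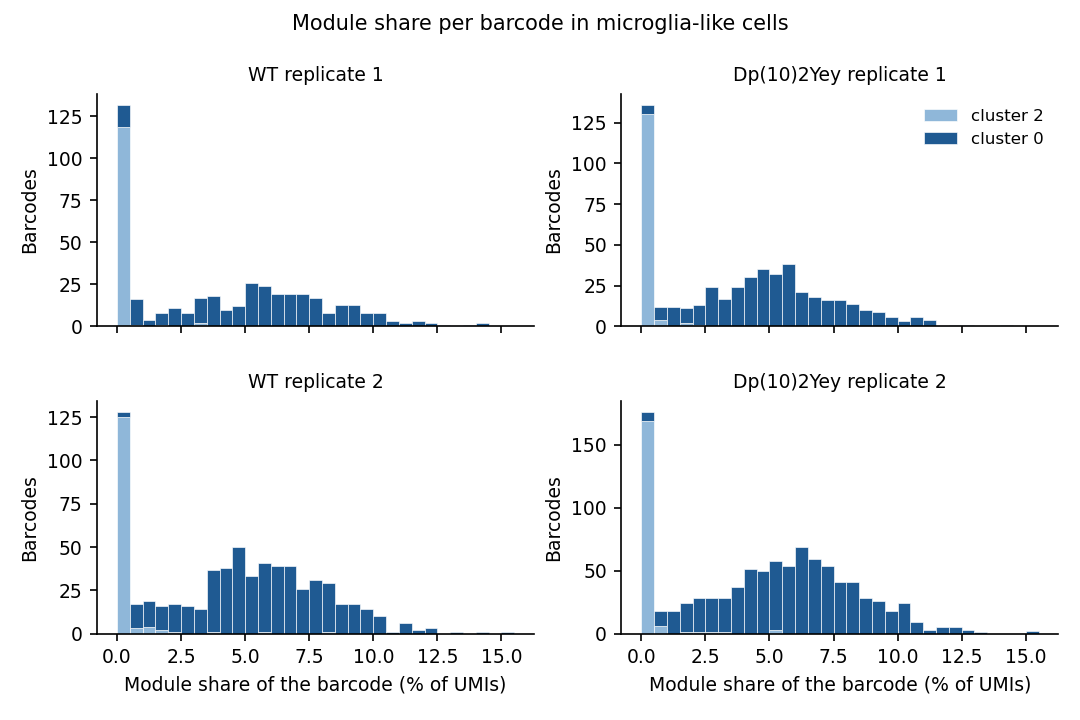
Number of microglia-like barcodes (vertical axis) by the percent of a barcode's UMIs in the module (horizontal axis, bins of 0.5 points), stacked by cluster, with a panel per library. Cluster 2 falls almost wholly below 1%, with 557 of its 580 cells there.

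Neuron-like cells also comprised a small cluster with more of the module. Cluster 12, with 51 cells and the Cajal-Retzius marker Reln among its leading genes, had shares of 0.487, 0.510, 1.20 and 0.482%, from only 8, 17, 9 and 17 cells. Cluster 5, the other 433 neuron-like cells, had 0.0988, 0.131, 0.10 and 0.150%. The share was higher in cluster 12 in all 4 libraries, and its cells had a median of 3961 UMIs and 4.17% mitochondrial UMIs against 1766 and 28.0% in cluster 5.

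In classes of low share, few barcodes carried much of the module. Of 890 astrocyte-like cells, 8 had 2% or more of their UMIs in the module, and these held 39.4% of the member UMIs of the class. Genes of the microglia marker list took a median of 3.11% of UMIs in those 8 cells and 0% in the others, and the 869 cells with under 1% of such UMIs had a pooled module share of 0.124%. In choroid plexus epithelium-like cells 2 of 148 barcodes held 39.0% of member UMIs, with microglia markers at a median of 4.60%. Endothelial-like cells differed from these, since 38 of 268 cells held 60.1% of member UMIs and microglia markers took a median of only 0.0181% in them. The part of mixed droplets in these shares was not tested.

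Barcodes of red blood cells, which lack a nucleus, served as the class that should not transcribe the genes. There were 190 barcodes with over 50% hemoglobin UMIs, 13, 22, 18 and 137 by library, with a median of 3946 UMIs, of which a median of only 126 were not of hemoglobin genes. The module took 349 of their 40712 other UMIs (0.857%), which was 0.181, 1.41, 1.73 and 0.631% by library, and 1 barcode held 101 of these member UMIs. The pooled share was above the mean of every named class other than microglia-like and endothelial-like cells. Member UMIs per barcode had a median of 0 and a mean of 1.84. Microglia-like cells, with a median of 3601 UMIs in all, had a median of 197 member UMIs. Medians were 26 in cluster 10, 21 in oligodendrocyte precursor-like, 15 in oligodendrocyte-like, 13.5 in immature neuron-like, 11 in endothelial-like and 6 in ependymal-like cells. Neuron-like, astrocyte-like and choroid plexus epithelium-like cells had a median of 1 and means of 6.34, 4.54 and 6.93, and 163 of 484, 253 of 890 and 58 of 148 of them had no member UMI, against 129 of 190 red blood cell barcodes.

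To compare how many cells had the genes at equal depth, each cell was thinned at random to 1000 UMIs and shallower cells were left out. At least 1 member UMI was then found in 94.5% (88.1% unthinned) of microglia-like, 97.3% (95.9% unthinned) of endothelial-like, 93.0% (98.4% unthinned) of oligodendrocyte-like and 92.8% (89.7% unthinned) of oligodendrocyte precursor-like cells. Because nearly all cells of these classes had a member UMI, their order is not read from this share. Ependymal-like cells gave 89.4% (95.3% unthinned), immature neuron-like cells 87.9% (90.1% unthinned) and cluster 10 90.7% (82.1% unthinned). Lower shares were found in astrocyte-like cells, 60.2% (71.6% unthinned), choroid plexus epithelium-like cells, 52.9% (60.8% unthinned), and neuron-like cells, 50.7% (66.3% unthinned). The red blood cell barcodes gave 12.1% (32.1% unthinned). Since hemoglobin took 891136 of their 931848 UMIs, few other UMIs were left in them at 1000, and their thinned shares are not used as a background. Their unthinned share is given for reference, with its low number of other UMIs in mind. Thinning left out 438 microglia-like, 305 astrocyte-like, 80 endothelial-like, 77 oligodendrocyte precursor-like, 52 neuron-like, 48 oligodendrocyte-like, 46 choroid plexus epithelium-like, 35 ependymal-like and 25 immature neuron-like cells, 27 cells of cluster 10 and 17 red blood cell barcodes.

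Fos alone separated the classes further. After thinning it was found in 77.8% (71.7% unthinned) of microglia-like, 55.5% (62.4% unthinned) of oligodendrocyte precursor-like, 39.5% (47.8% unthinned) of immature neuron-like, 35.6% (35.4% unthinned) of endothelial-like and 28.9% (41.8% unthinned) of oligodendrocyte-like cells, and in 46.6% (51.0% unthinned) of cluster 10. Neuron-like cells gave 7.41% (12% unthinned), choroid plexus epithelium-like cells 7.84% (7.43% unthinned), ependymal-like cells 5.32% (17.1% unthinned), astrocyte-like cells 4.62% (6.40% unthinned) and red blood cell barcodes 2.31% (4.21% unthinned). Without thinning, the 95% exact intervals were 11 to 24.7% in ependymal-like and 9.23 to 15.2% in neuron-like cells, above the 1.84 to 8.13% of red blood cell barcodes, with medians of 2049 and 1888 UMIs against 126 other than hemoglobin. Those of choroid plexus epithelium-like (3.77 to 12.9%) and astrocyte-like cells (4.89 to 8.22%) overlapped it. The part of depth in these shares was not tested, so they are not read as above background.

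**Figure D3:**
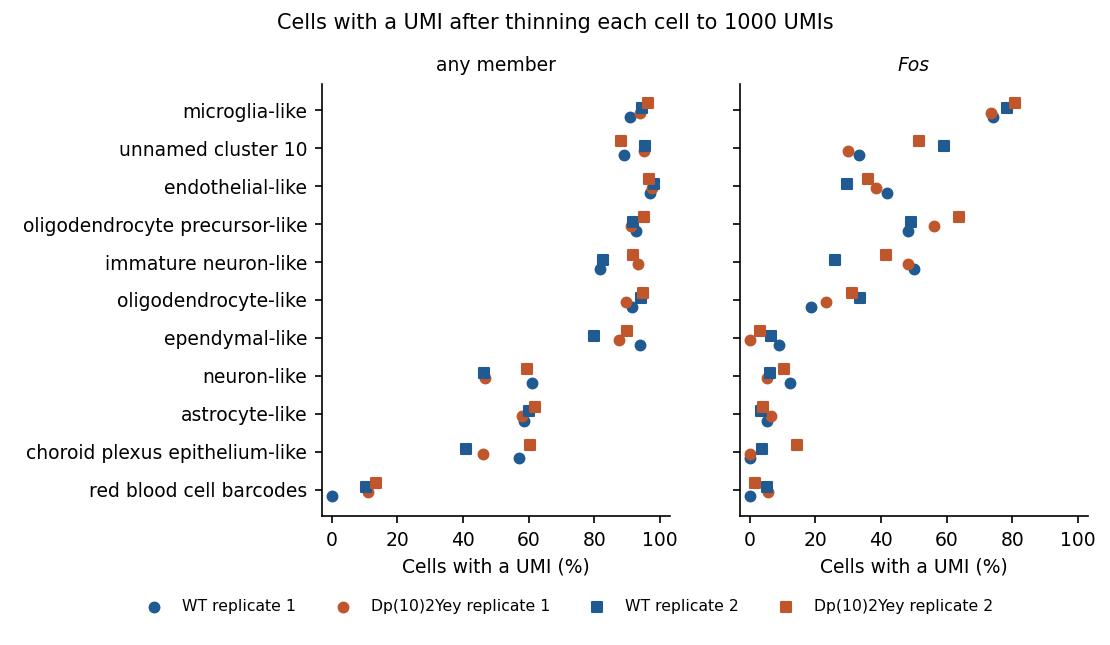
Percent of cells with at least 1 UMI of any member and of Fos after thinning to 1000 UMIs, by cell class, with red blood cell barcodes, whose UMIs are mostly hemoglobin, as the class that should lack the genes. Fos ranges from 2.31% of red blood cell barcodes to 77.8% of microglia-like cells.

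The AP-1 group, 8 members whose proteins pair to bind DNA, was the largest part of the module in microglia-like cells, with 2.45, 2.53, 2.23 and 2.82% of all UMIs and 48.7% of member UMIs. Jun was the most abundant member over all cells at 3072, 2765, 2455 and 3499.6 CPM, followed by Fos at 2859, 2546, 2319 and 2849 CPM and Junb at 2034, 2169, 1750.0 and 2665 CPM. These 3 were highest in microglia-like cells in all 4 libraries. Jund stood at 1763, 1827, 1373 and 2356 CPM, and Atf3, a factor of the stress response, at 1551, 1311, 1391 and 1690.3 CPM. Atf3 had the steeper gradient of the latter pair, from 3685 ± 217 CPM (SD, n = 4) in microglia-like to 17.6 ± 16.2 CPM in neuron-like cells, whereas Jund went from 3366 ± 717 to 250.1 ± 48.6 CPM in astrocyte-like cells. Fosb averaged 505 CPM over all cells, and Fosl2 and Maff only 14.7 and 12.7 CPM. AP-1 members made up 65.5% of member UMIs in oligodendrocyte precursor-like and 59.2% in oligodendrocyte-like cells, the highest shares of any class.

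The promoters of 4 abundant AP-1 members are shown, as 300 bases from RefSeq (build GRCm38.p6). They cover 250 bases before the gene's start and 50 after, on the gene's own strand. They lie at chr4:95052173-95052472 (minus strand), chr12:85473640-85473939 (plus strand), chr8:84978699-84978998 (minus strand) and chr1:191183284-191183583 (minus strand), and the Atf3 window lies inside the annotated gene, which spans 191170296 to 191218039. Capitals mark matches to the motifs searched, of which the Jun window has none.
Jun: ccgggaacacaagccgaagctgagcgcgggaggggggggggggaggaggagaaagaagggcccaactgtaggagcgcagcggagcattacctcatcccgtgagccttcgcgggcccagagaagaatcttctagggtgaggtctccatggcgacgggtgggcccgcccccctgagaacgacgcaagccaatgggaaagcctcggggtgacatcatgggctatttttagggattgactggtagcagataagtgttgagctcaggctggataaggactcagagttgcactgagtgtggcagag
Fos: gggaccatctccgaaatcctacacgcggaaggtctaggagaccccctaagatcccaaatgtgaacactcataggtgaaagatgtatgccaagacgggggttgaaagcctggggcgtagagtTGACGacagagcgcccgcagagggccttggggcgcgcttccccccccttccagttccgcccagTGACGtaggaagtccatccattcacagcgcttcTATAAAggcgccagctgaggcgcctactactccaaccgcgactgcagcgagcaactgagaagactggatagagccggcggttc
Junb: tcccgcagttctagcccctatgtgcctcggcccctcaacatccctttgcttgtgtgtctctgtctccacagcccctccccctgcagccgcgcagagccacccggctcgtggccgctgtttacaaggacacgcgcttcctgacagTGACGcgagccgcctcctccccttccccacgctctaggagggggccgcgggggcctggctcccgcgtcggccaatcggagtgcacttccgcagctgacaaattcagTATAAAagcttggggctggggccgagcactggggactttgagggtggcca
Atf3: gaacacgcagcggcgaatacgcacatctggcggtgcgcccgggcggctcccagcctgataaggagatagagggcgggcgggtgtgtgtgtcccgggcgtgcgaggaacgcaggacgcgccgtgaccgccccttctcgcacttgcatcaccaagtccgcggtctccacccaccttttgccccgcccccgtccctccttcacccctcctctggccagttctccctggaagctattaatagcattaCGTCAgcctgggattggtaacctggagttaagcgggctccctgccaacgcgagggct
Counted from 1 at the 5′ end, the Fos window has TGACG, the core of the cAMP response element, at bases 122 and 185 and TATAAA at base 218. Junb has TGACG at base 145 and TATAAA at base 251, and Atf3 has the core on the other strand at base 244.

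The EGR and NR4A group comprises 3 zinc finger factors and 3 orphan nuclear receptors, and it took 0.426, 0.475, 0.477 and 0.492% of UMIs in microglia-like cells. Egr1 made up most of it, at 1794, 1782, 1784 and 2030.0 CPM over all cells, and averaged 4264 ± 264 CPM (SD, n = 4) in microglia-like against 124 ± 54.3 CPM in neuron-like and 959 ± 173 CPM in immature neuron-like cells. In immature neuron-like cells the group held 15.4% of member UMIs, its highest share in any class. Egr3 and Egr2 averaged 56.1 and 45.1 CPM over all cells. Nr4a1, Nr4a2 and Nr4a3, at 115, 9.26 and 4.76 CPM, were highest in cluster 10.

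Among the Krüppel-like factors, Klf2 and Klf4 departed from the pattern of the module, because both had their highest mean in endothelial-like cells, where they are known regulators of vessel quiescence. Klf2 stood at 1208, 792, 672 and 764 CPM over all cells, at 2385, 1749, 2202 and 1575 CPM in endothelial-like and at 2389, 1844, 1556 and 1634 CPM in microglia-like cells. The endothelial-like mean of Klf2 was the higher because of Dp(10)2Yey replicate 1 alone, since in the other libraries the microglia-like value was slightly above it. Klf4 averaged 789 ± 220.3 CPM (SD, n = 4) in endothelial-like and 711 ± 237 CPM in microglia-like cells, a difference within the spread, and Klf6 averaged 984 ± 39.0 CPM in microglia-like cells, its highest class. The 3 factors held 19.4% of member UMIs in endothelial-like cells.

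Arc, which codes for a synaptic protein, and Npas4, a factor induced by calcium entry in neurons, are the members most bound to neuronal activity, and both were scarce. Arc stood at 5.49, 10.1, 17.6 and 9.84 CPM over all cells and was highest in oligodendrocyte-like cells at 27.4, 37.1, 56.5 and 43.2 CPM, against 7.44, 4.82, 47.7 and 8.52 CPM in neuron-like cells. It had a UMI in 168 of 973 oligodendrocyte-like cells (17.3%, 95% exact interval 14.9 to 19.8%), 16 of 484 neuron-like cells (3.31%, 95% exact interval 1.90 to 5.31%) and 2 of 2555 microglia-like cells. Thinned to 1000 UMIs these shares were 5.19% in oligodendrocyte-like and 1.62% in neuron-like cells. The intervals of both classes lay above the 0.00948 to 0.282% of microglia-like cells, which were deeper than the neuron-like cells (medians of 3601 and 1888 UMIs). The oligodendrocyte-like cells had a median of 4971 UMIs. All intervals given here pool the cells of 4 libraries and cover counting error only, so the differences between classes are descriptions without a test. In neuron-like cells Arc was highest in Dp(10)2Yey replicate 1, at 47.7 CPM. Npas4 stood at 0.686, 0.595, 1.80 and 0.792 CPM over all cells and at 7.44, 4.82, 11.9 and 4.26 CPM in neuron-like cells, its highest class. It had a UMI in 8 of 484 neuron-like cells (1.65%, 95% exact interval 0.716 to 3.23%), 5 of 182 immature neuron-like cells (2.75%, 95% exact interval 0.898 to 6.29%) and 0 of 2555 microglia-like cells, which allows a share of up to 0.117% by 3 counts and 0.144% as exact upper limit. The interval of neuron-like cells lay above both of these limits. In the red blood cell barcodes 0 of 190 had Arc and 0 of 190 had Npas4, which allows a share of up to 1.58% by 3 counts and 1.92% as exact upper limit, but with a median of 126 UMIs other than hemoglobin these barcodes are a weak background.

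The feedback group, 7 members that damp kinase, cytokine or G protein signals or mark messenger RNA for decay, took 0.810, 0.851, 0.778 and 0.814% of UMIs in microglia-like cells. Zfp36, whose protein binds AU-rich messenger RNA and speeds its decay, stood at 1134, 1113, 1020.4 and 1241 CPM over all cells and was highest in microglia-like cells in all 4 libraries. Its relative Zfp36l1 averaged 1570.3 ± 84.4 CPM (SD, n = 4) in microglia-like cells and was the leading feedback member in ependymal-like cells, where the group made up 36% of member UMIs. Averages over all cells were 701 CPM for the phosphatase gene Dusp1, 429 for Rgs2, 251 for Socs3, 169 for Dusp6 and 114 for Rgs1, and each was highest in microglia-like cells. The promoter of Zfp36, another abundant member, lies at chr7:28379179-28379478 (minus strand), inside the annotated gene span, and is also shown. It was the only member window with a CArG box, the element of serum response factor, at base 193, in capitals.
Zfp36: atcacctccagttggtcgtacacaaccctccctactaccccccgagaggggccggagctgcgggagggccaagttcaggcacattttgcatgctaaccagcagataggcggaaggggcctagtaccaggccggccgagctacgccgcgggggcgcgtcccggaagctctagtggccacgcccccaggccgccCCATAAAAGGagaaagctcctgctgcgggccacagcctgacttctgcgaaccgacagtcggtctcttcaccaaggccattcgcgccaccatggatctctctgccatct

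Growth and survival members took 0.370, 0.375, 0.374 and 0.368% of UMIs in microglia-like cells, a narrow range. Btg2, an antiproliferative gene, stood at 1135, 1014, 991 and 1125 CPM over all cells, and Mcl1, an antagonist of cell death, averaged 451 CPM. Gadd45b and Gadd45g, genes of the growth arrest response, averaged 71.8 and 45.8 CPM and were highest outside microglia-like cells, in cluster 10 and in immature neuron-like cells (209 ± 42.0 CPM, SD, n = 4).

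Other early response members took 0.615, 0.697, 0.632 and 0.787% of UMIs in microglia-like cells. Rhob, a small GTPase gene, stood at 1536, 1607, 1458 and 1754 CPM over all cells and was highest in microglia-like cells in all 4 libraries. Ier5, Ier2, Ier3 and Csrnp1 averaged 653, 594, 296 and 40.9 CPM, each with its highest mean in microglia-like cells. The group held 21.1% of member UMIs in oligodendrocyte-like cells, where Rhob led it, and 19.2% in immature neuron-like cells, where Ier2 did. The promoter of Rhob, at chr12:8499960-8500259 (minus strand), is shown as an abundant member without a match to any motif searched, and so has no capitals.
Rhob: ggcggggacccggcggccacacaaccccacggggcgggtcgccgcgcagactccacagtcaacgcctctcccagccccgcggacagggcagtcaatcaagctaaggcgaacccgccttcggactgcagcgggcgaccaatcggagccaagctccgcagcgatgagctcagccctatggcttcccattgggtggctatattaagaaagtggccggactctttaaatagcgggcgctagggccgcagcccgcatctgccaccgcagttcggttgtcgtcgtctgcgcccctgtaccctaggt

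**Figure D4:**
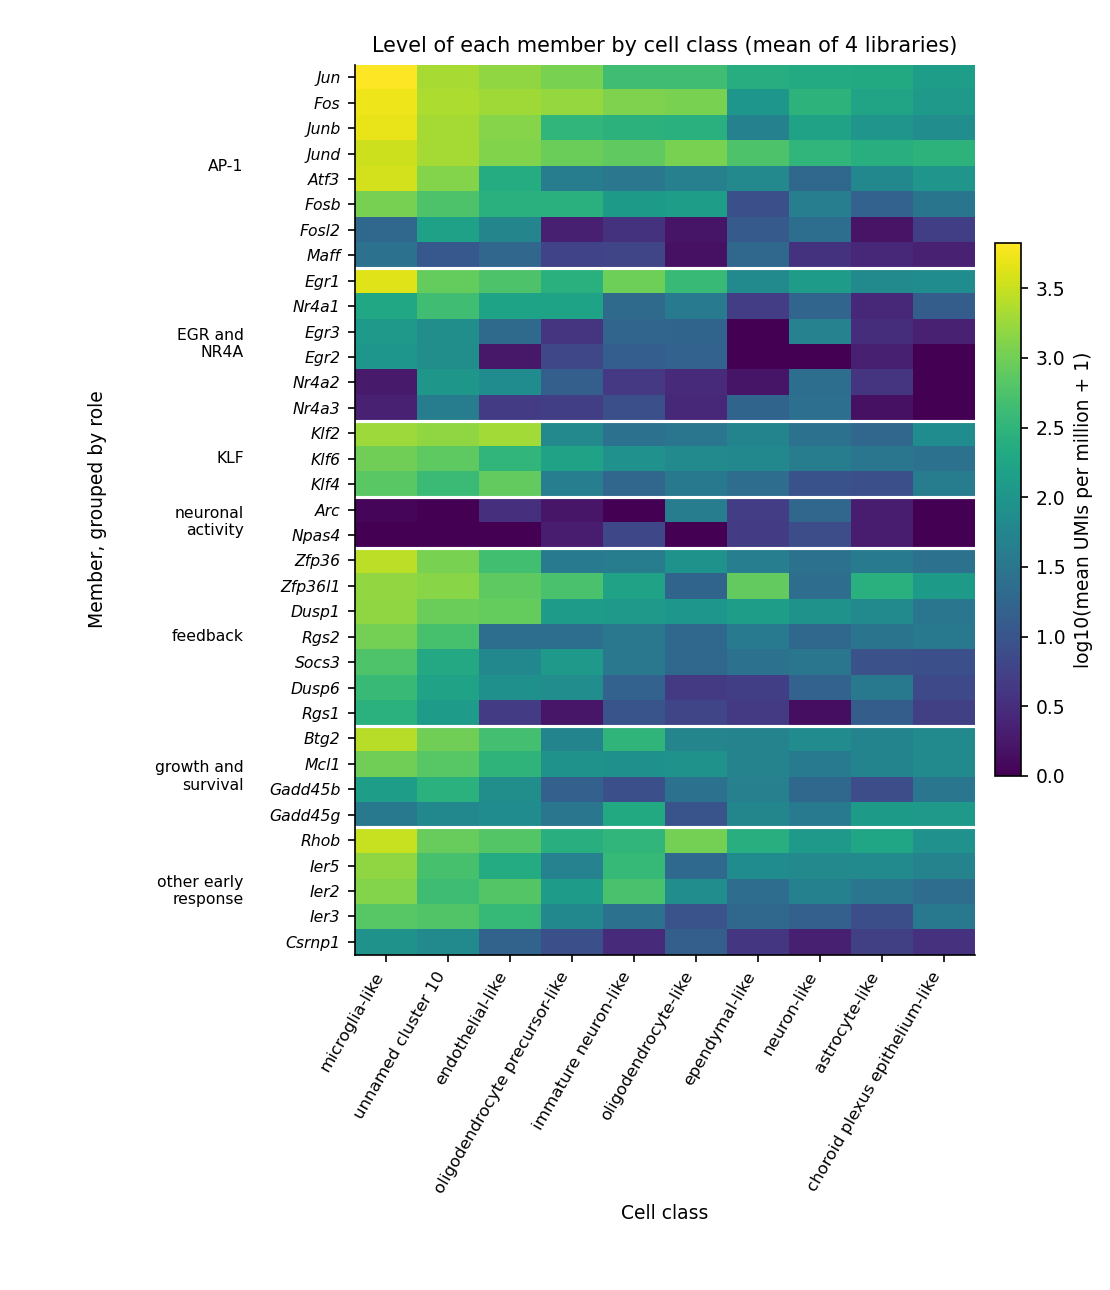
Mean level of each of the 35 members (log10 of CPM plus 1, mean of 4 libraries) in each cell class, with members grouped by role. The microglia-like column is the highest for most members, while the means of Klf2 and Klf4 are highest in endothelial-like cells and Arc in oligodendrocyte-like cells at 41.1 CPM.

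A RefSeq promoter was at hand for 30 of the 35 members (none for Arc, Egr1, Egr3, Ier2 and Rgs1), and 5 motifs were searched on both strands in these and in all 27025 promoters of the same length. TGACG, which also lies inside the full cAMP response element TGACGTCA, was present in 15 member windows (50%) against 20.9% of all promoters. The full element was in those of Btg2 and Dusp1 (6.67% against 1.85%). TATAAA was in 6 (20% against 14.2%), the AP-1 element TGANTCA in that of Zfp36l1 (3.33% against 7.92%), and the CArG box in that of Zfp36 (3.33% against 1.59%). Matches are described as letters in these windows and do not show binding.

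Across microglia-like cells most abundant members varied together from cell to cell within a library. The Pearson correlation of a member with the summed rest of the module, averaged over 4 libraries of 424, 663, 510 and 958 cells, was 0.859 for Fos, 0.857 for Egr1, 0.832 for Jun, 0.820 for Junb and 0.816 for Btg2. In cluster 0 alone it was 0.706 for Fos and 0.698 for Egr1, so part of the correlation lay between the 2 clusters. The points share library, depth and cell state, and the values carry no test.

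Outside the module, 7580 genes were correlated with the module share over the microglia-like cells of each library, and genes were ranked by the value of their lowest library. Among those with the highest values were the nuclear RNA Malat1 (lowest r 0.690, 24688 CPM in microglia-like cells), the histone gene H3f3b (0.680, 7351 CPM) and the RNA helicase gene Ddx5 (0.660, 2207 CPM). The noncoding Gm26532 followed (0.619, 662 CPM), with the NF-kB regulator genes Nfkbiz (0.601, 1007 CPM) and Nfkbia (0.60, 1381 CPM). Tra2b (0.586, 492 CPM), Pnrc1 (0.585, 561.8 CPM) and Ccnl1 (0.582, 370.1 CPM) were also among them. Over the 36 sums of the 9 named classes in 4 libraries, r of the genes named was between 0.444 for Malat1 and 0.877 for Pnrc1. By the library with the value nearest to 0, the most negative genes were Gm42418 (-0.534 to -0.444), mt-Atp6 (-0.498 to -0.419) and the ribosomal protein gene Rplp1 (-0.584 to -0.413). In cluster 0 alone, an alternative chosen after seeing the data, the genes named above had lower values, from 0.213 for Malat1 to 0.521 for H3f3b in their lowest library, so part of these correlations lay between the 2 clusters.

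Other response genes were described by class in the same way, and their differences from the module were not tested. A list of 27 heat shock and NF-kB feedback genes was, like the module, highest in microglia-like cells. It took 1.38% ± 0.0755 of UMIs (SD, n = 4) there, where Ccl4 made up 29.6% of it. Ependymal-like cells, where Hsp90aa1 led, followed at 1.28% ± 0.218, a difference within the spread. The 8 metallothionein and glucocorticoid response genes were highest in astrocyte-like cells, at 1.36% ± 0.122, mostly Mt1, against 0.152% ± 0.0191 in microglia-like cells. The 44 other early and late response genes were highest in endothelial-like cells at 0.571% ± 0.0489, with 0.451% ± 0.0313 in microglia-like cells. The 45 genes of signalling to immediate early genes were highest in neuron-like cells at 0.878% ± 0.159, with 0.443% ± 0.0166 in microglia-like cells. Astrocyte-like cells thus had the most metallothionein transcripts and nearly the least of the module.

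The comparison of genotypes asked whether the duplication, which holds no member, went with another level of the module. Over all cells the shares were 2.49, 2.27, 2.08 and 2.65%, and the ratio of the Dp(10)2Yey mean to the WT mean was 0.994, with overlapping groups. In microglia-like cells the ratio was 1.0, in endothelial-like cells 0.918 and in neuron-like cells 1.05, again with overlapping groups. In ependymal-like cells it was 0.732 without overlap of the pooled shares, from 61, 16, 18 and 34 cells with median depths of 1051, 6746.5, 4139.5 and 9686.5 UMIs, whereas the medians over barcodes given above overlapped. No p is given for these shares, since 2 libraries against 2 cannot give a two-sided exact permutation p below 0.33.

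Gene by gene, UMIs were summed per library and class and tested with edgeR's quasi-likelihood test over all genes that passed a filter on low counts. At a Benjamini-Hochberg adjusted p under 0.01, edgeR called 0 members in all 9 classes and in all cells, with 21 of 178 member tests in the 9 classes at an unadjusted p under 0.05, and DESeq2 also called 0. Fewer members were at an unadjusted p under 0.05 by DESeq2. These were 3 in oligodendrocyte precursor-like, 2 in oligodendrocyte-like, 1 in microglia-like and 1 in ependymal-like cells, with 0 in each other class and 1 in all cells. Over all genes, DESeq2 had 30 of 8124, 46 of 8627, 41 of 9178, 6 of 2821 and, in all cells, 146 of 13876. In the other classes it had 21 of 6524 in astrocyte-like, 22 of 4398 in endothelial-like and 64 of 5803 in neuron-like cells. Immature neuron-like cells had 19 of 3359 and choroid plexus epithelium-like cells 17 of 1397. Whether members differed from all genes in this was not tested. By edgeR, 0.0307% of all genes tested were called in astrocyte-like cells and 0% in the other 9 comparisons. The lowest adjusted p of a member was 0.464 by edgeR, for Atf3 in oligodendrocyte precursor-like cells. Of all genes, the share with an unadjusted p under 0.05 by edgeR was 2.71% in all cells, 3.04% in microglia-like and 4.11% in astrocyte-like cells. It was 2.6% in oligodendrocyte-like, 3.58% in oligodendrocyte precursor-like, 3.91% in endothelial-like and 3.95% in neuron-like cells. Immature neuron-like cells had 2.74%, ependymal-like cells 3.69% and choroid plexus epithelium-like cells 3.22%. Members tested and at an unadjusted p under 0.05 by edgeR were 34 and 1 in all cells, 31 and 3 in microglia-like, 28 and 5 in oligodendrocyte-like, 26 and 2 in endothelial-like, 24 and 4 in oligodendrocyte precursor-like, 19 and 0 in neuron-like, 18 and 5 in astrocyte-like, 15 and 0 in immature neuron-like, 9 and 0 in choroid plexus epithelium-like and 8 and 2 in ependymal-like cells. Npas4 did not pass the filter in any of these 10 comparisons.

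Taken over the tested members, the median log2 ratio of Dp(10)2Yey to WT was 0.02 in all cells, 0.02 in microglia-like, 0.02 in oligodendrocyte-like, 0.13 in oligodendrocyte precursor-like, -0.12 in endothelial-like, -0.05 in immature neuron-like and 0.17 in neuron-like cells. It lay further from 0 in astrocyte-like cells, 0.33, choroid plexus epithelium-like cells, -0.22, and ependymal-like cells, -0.59. With a library left out, the median over members changed sign in 7 of these 10 comparisons. In astrocyte-like cells it became -0.29 when Dp(10)2Yey replicate 2 was missing and -0.22 when it was WT replicate 2 instead, and in choroid plexus epithelium-like cells 0.32 without Dp(10)2Yey replicate 1 and 3.54, from 2 members, without WT replicate 2. The sign held in oligodendrocyte precursor-like, neuron-like and ependymal-like cells. The median over all genes tested was between -0.05 and 0.01. When a library was left out, members did pass the adjusted threshold with edgeR, and they are named by class below with their log2 fold changes. Over all genes of the 9 classes, more also passed in these fits than the 2 in the fit reported. The lone library of a genotype was assumed there to vary like the pair of the other. Calls in these fits are therefore not read as a result about the members.

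**Figure D5:**
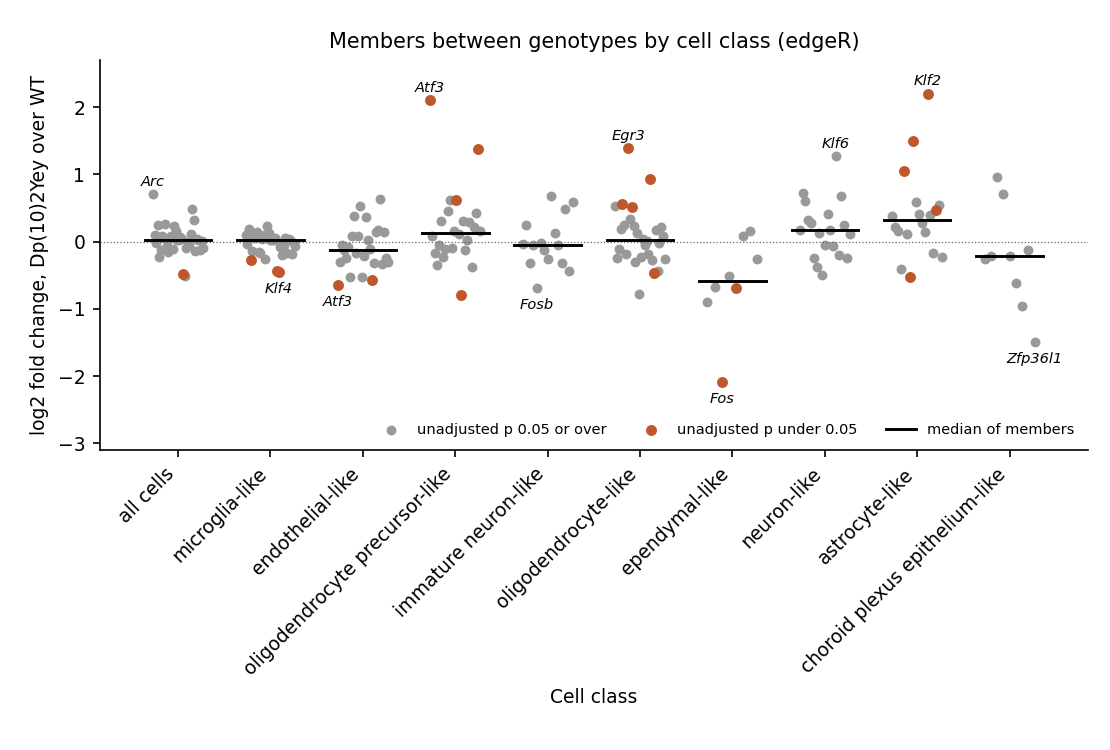
Log2 fold change (Dp(10)2Yey over WT) of every tested member in each class, with orange points for an unadjusted p under 0.05 by edgeR, a black line at the median and the member of largest absolute change named. Medians lie between -0.59 in ependymal-like and 0.33 in astrocyte-like cells, and 0 members passed the adjusted threshold.

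The 3 tested members with the largest absolute log2 fold change are given for each class, each with its standard error (SE) and the range of its log2 fold change over up to 12 other settings. Overlap of the genotypes is given as a description. With 2 libraries against 2, groups fail to overlap with a probability of 0.33 when genotype makes no difference. Members picked for a large change do so more often. The share of all genes without overlap is not given here, so separation is not read as a result about the members. In microglia-like cells Klf4 stood at 1042, 593, 711 and 499 CPM, a log2 fold change of -0.46 (SE 0.20, -0.81 to -0.01), Klf2 at 2389, 1844, 1556 and 1634 CPM, -0.44 (SE 0.14, -0.61 to -0.25), and Dusp1 at 1739, 1581, 1434 and 1378 CPM, -0.27 (SE 0.13, -0.33 to -0.21). For Klf2 and Dusp1 both Dp(10)2Yey libraries were below both WT libraries, and for Klf4 the groups overlapped. Without Dp(10)2Yey replicate 1, Klf4 passed the edgeR threshold at a log2 fold change of -0.75, and WT replicate 1 was the highest library for it. Over all cells Klf4 stood at 518, 274, 311 and 244 CPM (-0.51 (SE 0.27, -0.89 to 0.02)), Klf2 at 1208, 792, 672 and 764 CPM (-0.48 (SE 0.20, -0.75 to -0.14)) and Arc at 5.49, 10.1, 17.6 and 9.84 CPM (0.70 (SE 0.38, 0.24 to 1.30)). Only Klf2 of these had groups that did not overlap.

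Endothelial-like cells had Klf4 at 1092, 805, 664 and 594 CPM, a log2 fold change of -0.58 (SE 0.23, -0.75 to -0.35), and Atf3 at 379, 202, 146 and 199 CPM, -0.64 (SE 0.29, -1.06 to -0.18). In both, the Dp(10)2Yey libraries lay below the WT libraries. Nr4a2 stood at 86.2, 31.1, 105 and 66.4 CPM, 0.64 (SE 0.48, -0.03 to 1.39), with overlapping groups.

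Oligodendrocyte-like cells had Egr3 at 3.66, 11.2, 31.5 and 17.8 CPM, a log2 fold change of 1.39 (SE 0.44, 0.96 to 2.69), Klf4 at 9.14, 31.8, 58.1 and 38.6 CPM, 0.93 (SE 0.34, 0.57 to 2.38), and Ier3 at 11, 11.2, 0.808 and 10.9 CPM, -0.78 (SE 0.66, -3.63 to -0.03). Egr3 and Klf4 were lowest in WT replicate 1, with 2 and 5 UMIs there. Of the Ier3 UMIs, 11 of 19 in WT replicate 2 and 16 of 19 in Dp(10)2Yey replicate 2 were in called doublets, without which it no longer passed the filter. Without WT replicate 2, Klf4 passed the edgeR threshold at 2.38, and without Dp(10)2Yey replicate 2 so did Klf4 at 1.18, Atf3 at -2.27, Rgs2 at -2.78 and Klf2 at -2.24 (log2 fold changes).

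In oligodendrocyte precursor-like cells Atf3 stood at 29.5, 7.14, 44.1 and 82.0 CPM, a log2 fold change of 2.10 (SE 0.48, 1.02 to 3.10), from 8, 4, 24 and 56 UMIs. In the Dp(10)2Yey libraries, 23 of the 24 and 52 of the 56 UMIs came from 1 cell each, and both cells were called doublets by Scrublet and had over 1% of UMIs in microglia markers. Without called doublets Atf3 no longer passed the filter on low counts. With all 4 libraries it passed the edgeR threshold at 2.12 without the filter, 2.18 at resolution 0.5 and 2.15 with the replicate number as a block, and it did so without WT replicate 1 at 3.10 and without Dp(10)2Yey replicate 1 at 2.46. Zfp36 stood at 7.38, 28.6, 71.7 and 42.4 CPM, 1.37 (SE 0.43, 0.93 to 2.90), and 29 of its 39 UMIs in Dp(10)2Yey replicate 1 came from 1 called doublet, as did 10 of 16 in WT replicate 2, while 15 of 29 in Dp(10)2Yey replicate 2 were in called doublets, and without all called doublets the log2 fold change was 1.03 (SE 0.58). Klf2 stood at 44.3, 109, 51.5 and 46.8 CPM, -0.80 (SE 0.33, -1.18 to 0.17), with overlapping groups, and 23 of its 61 UMIs in WT replicate 2 and 12 of 28 in Dp(10)2Yey replicate 1 were in called doublets.

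Astrocyte-like cells had Klf2 at 16.3, 0, 25.7 and 28.3 CPM, a log2 fold change of 2.20 (SE 0.69, 0.72 to 7.06), Ier2 at 36.8, 4.13, 11.8 and 69.5 CPM, 1.5 (SE 0.47, -0.48 to 3.35), and Egr1 at 89.8, 12.4, 29.6 and 131 CPM, 1.05 (SE 0.33, -0.46 to 2.74). Few cells lay behind these values. Klf2 had 4, 0, 13 and 24 UMIs, of which 12 and 15 in the Dp(10)2Yey libraries (replicates 1 and 2) came from 1 cell each. With 0 UMIs in WT replicate 2, the upper end of its range is not read as a size. Of the 111 Egr1 UMIs in Dp(10)2Yey replicate 2, 104 were in cells with at least 1% microglia markers and 88 in called doublets, and of the 59 Ier2 UMIs there, 51 and 37. In WT replicate 1, 20 of 22 Egr1 UMIs and 8 of 9 Ier2 UMIs were in called doublets with microglia markers. Without called doublets Klf2 and Ier2 no longer passed the filter, and Egr1 had a log2 fold change of 1.34 (SE 0.57). Ier2 and Egr1 passed the edgeR threshold without WT replicate 1 at 3.35 and 2.74, with Atf3 at 2.58, and without Dp(10)2Yey replicate 1 at 2.09 and 1.63.

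Ependymal-like cells, which were few, had Fos at 77.1, 263, 19.1 and 49.7 CPM, a log2 fold change of -2.08 (SE 0.49, -3.06 to -0.97), Atf3 at 77.1, 83.5, 38.3 and 47.1 CPM, -0.90 (SE 0.47, -1.03 to -0.83), and Jun at 266, 328, 191 and 191 CPM, -0.70 (SE 0.25, -0.84 to -0.52). All 3 were lower in both Dp(10)2Yey libraries than in both WT libraries. As above, this separation is not read as a result about the members. In WT replicate 2, 35 of 41 Fos UMIs and 31 of 51 Jun UMIs came from 1 cell for each gene. Fos passed the edgeR threshold without Dp(10)2Yey replicate 1 at -1.89.

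Neuron-like cells had Klf6 at 52.1, 11.3, 32.8 and 61.8 CPM, a log2 fold change of 1.27 (SE 0.63, -0.02 to 2.18), Dusp1 at 96.7, 54.6, 113 and 85.2 CPM, 0.72 (SE 0.43, 0.21 to 1.22), and Nr4a2 at 14.9, 20.9, 29.8 and 27.7 CPM, 0.67 (SE 0.60, 0.37 to 1.10). For Klf6, 15 of 29 UMIs in Dp(10)2Yey replicate 2 came from 1 cell, with at least 1% microglia markers, and only Nr4a2 had groups that did not overlap. Immature neuron-like cells had Fosb at 142, 151, 101 and 84.0 CPM, -0.70 (SE 0.35, -0.98 to -0.54), Jun at 361, 341, 339.5 and 749 CPM, 0.68 (SE 0.35, -0.11 to 1.14), and Zfp36l1 at 229.6, 37.8, 256 and 102 CPM, 0.59 (SE 0.60, -0.49 to 2.13). Jun was high in Dp(10)2Yey replicate 2 alone. There, 88 of its 294 UMIs were in cells with at least 1% microglia markers, against 0 in each other library. Without Dp(10)2Yey replicate 1, Atf3 passed the edgeR threshold at 4.13. Choroid plexus epithelium-like cells had Zfp36l1 at 102, 250.4, 0 and 125 CPM, -1.49 (SE 0.93, -1.75 to -0.65), Fos at 0, 119, 0 and 330.4 CPM, 0.96 (SE 1.28, 0.75 to 7.30), and Jund at 306, 438, 107 and 335 CPM, -0.95 (SE 0.59, -2.06 to -0.22). Groups overlapped for all 3, and Fos had no UMI in either replicate 1 library, from 19 and 22 cells. The upper end of its range is therefore not read as a size. Of its UMIs in WT replicate 2, 14 of 19 came from 1 cell with at least 1% microglia markers. In Dp(10)2Yey replicate 2, 30 of its 66 UMIs came from 1 cell. Cells with at least 1% microglia markers held 16 of 40 Zfp36l1 and 17 of 70 Jund UMIs in WT replicate 2. In Dp(10)2Yey replicate 2 they held 5 of 25 and 10 of 67. The changes named over the 9 classes and all cells were 30 pairs of a member and a comparison, with some members named in several. Of these 30 pairs, 8 changed sign in at least 1 of up to 12 settings. They were Klf4 over all cells, Nr4a2 in endothelial-like, Klf2 in oligodendrocyte precursor-like, and Ier2 and Egr1 in astrocyte-like cells. The others were Klf6 in neuron-like, and Jun and Zfp36l1 in immature neuron-like cells.

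Between genotypes, no gene of the other lists passed the threshold in any class. At an adjusted p under 0.01, edgeR called 0 of 123 tests of heat shock and NF-kB feedback genes over the 9 classes, 0 of 33 of metallothionein and glucocorticoid response genes, 0 of 135 of other early and late response genes and 0 of 245 of signalling genes. At an unadjusted p under 0.05 there were 11, 3, 14 and 5 of these tests by edgeR, and 2, 0, 1 and 0 by DESeq2. DESeq2 called 0 in each list. Of all genes, between 2.6 and 4.11% by class were at an unadjusted p under 0.05 by edgeR. By DESeq2 this share was lowest in ependymal-like cells, 6 of 2821 genes, and highest in choroid plexus epithelium-like cells, 17 of 1397.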

How the data were processed

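Droplet 3′ UMI counts per gene and barcode were deposited by the authors for 4 libraries, made with Cell Ranger 3.0.2 on a custom mm10 reference per the submitters' notes, without normalization. Barcodes under 200 detected genes were dropped, as were genes seen in 3 or fewer cells. Barcodes with over 10% hemoglobin UMIs were removed, a rule chosen after seeing the data because no cluster of red blood cells formed. Libraries were integrated in Seurat 5.3.0 (2000 variable genes without the members, 50 dimensions, resolution 0.2), and clusters were named from marker lists. Counts summed per library and class were tested with edgeR 4.0.16 (R 4.3.3; TMM, filterByExpr, classes with at least 10 cells in every library). Standard errors are the absolute log2 fold change over the square root of F. DESeq2 1.42.0 was an alternative, and Scrublet in scanpy 1.11.5 called 53 doublets, which were kept in the values given. Other alternatives were normalization, filter, threshold, pairing, clustering, mitochondrial share, summary of the share, thinning and leaving out each library. Values by library are given for the 10 most abundant members, Arc, Npas4, Egr1, and the 3 tested members of largest absolute log2 fold change per class. Promoters are shown for abundant members, at most 6. Members and lists were chosen with earlier results of these data known. Exact intervals (Clopper-Pearson) cover counting error only.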

Additional observations from a re-analysis of the deposited data

Results flagged for a closer look

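Some members had log2 fold changes (Dp(10)2Yey over WT) of opposite sign in 2 classes. In each class both Dp(10)2Yey libraries lay on the same side of both WT libraries. These were looked for only among the members named above by class for a large change. With 2 libraries against 2, groups fail to overlap with a probability of 0.33 when genotype makes no difference. Members picked for a large change do so more often. Separation with opposite signs is therefore not read as a result about the members. Atf3 had 2.10 in oligodendrocyte precursor-like and -0.90 in ependymal-like cells. Klf2 had 2.20 in astrocyte-like and -0.44 in microglia-like cells. Klf4 had 0.93 in oligodendrocyte-like and -0.58 in endothelial-like cells. The differences between classes were not tested, and the Atf3 and Klf2 values in oligodendrocyte precursor-like and astrocyte-like cells rest largely on called doublets. Over the settings tried, the Klf2 value in astrocyte-like cells ran from 0.72 to 7.06. Since WT replicate 2 had 0 Klf2 UMIs there, the upper end of this range is not read as a size.

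The 222 barcodes left out of the clustering, 183 with under 200 genes and 39 with over 10% hemoglobin, held 1470 member UMIs (0.914% of their UMIs other than hemoglobin), and were flagged only because this is above the limit of 3 counts that a count of 0 allows. That does not show whether the level is unusual for such barcodes. Of these, 1393 were in the hemoglobin-rich barcodes.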

How the results depend on the processing

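The microglia-like cells had the highest module share of the named classes in every library under all 10 ways of computing it. Their mean share of 5.20% was 4.51% as a median and 4.37% as a mean over barcodes, 4.53% without Jun, and 5.07 to 5.32% with a library left out. With each member scaled by its own mean, their level was 1.88 times the mean over all cells, below the 1.99 of the unnamed cluster 10. The Dp(10)2Yey to WT ratio over all cells was 0.994 and stayed between 0.875 and 1.11 with a library left out. The share of microglia-like cells with a member UMI, 94.5% at 1000 UMIs, was 88.1% without thinning and 84.2% at 500 UMIs. Among values by class, 27 of 128 shares, 8 of 117 ratios and 13 of 108 median fold changes moved by more than the spread between libraries.

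Over the 9 classes edgeR called 0 members in the fit reported (21 at an unadjusted p under 0.05, 0 called by DESeq2). Without the filter on low counts it called 2, Fos in ependymal-like and Atf3 in oligodendrocyte precursor-like cells. At resolution 0.5 it called 1, Atf3 in oligodendrocyte precursor-like cells. With a library left out, which leaves a lone library of a genotype, the members named above by class passed as well. Genes called over the 9 classes, 2 in the fit reported, numbered 4 with DESeq2, 104 without the filter, 6 with the members among the variable genes, 5 at resolution 0.5, 4 without called doublets, 8 at an adjusted p under 0.05 and 57 to 212 with a library left out. The causes were not tested.

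With the replicate number as a block, 87 genes and 1 member (Atf3 in oligodendrocyte precursor-like cells) were called. The labels give only numbers for 2 pairs. The correlation of deviations of libraries with the same number ran from -0.0258 in astrocyte-like to 0.406 in choroid plexus epithelium-like cells. It was 0.0054 in all cells and 0.174 in microglia-like cells. These values do not settle whether the numbers pair the mice, so the block is given only as an alternative. In the fit reported, Npas4 passed the filter on low counts in no class, and only 8 members did in ependymal-like cells.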
